A study of Mus musculus with 6 samples.

Results

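The 10 genes described here are Cdt1, Mcm2, Mcm3, Mcm4, Mcm5, Mcm6, Mcm7, Pcna, Tk1 and Cdkn1a, which load and run the DNA replication machinery or hold it back. All 10 were found by symbol among the 54532 entries of each table, and 10 of 10 were among the 9943 genes tested, those averaging 1 FPKM or more (reads scaled to gene length and to the size of the library). Expression was measured by RNA sequencing of total RNA from C57BL/6 bone-marrow-derived macrophages, that is, phagocytic cells matured in vitro out of marrow precursors. An siRNA, a short RNA that lowers the transcript it matches, was transfected into the cells, directed at Cxcr4 in the siCXCR4 group and a negative control in the siNC group, and all cells were given bacterial lipopolysaccharide (LPS) at 100 ng/ml for 12 hours. No group without LPS and no untransfected group is analysed here, so every value below describes LPS-treated, transfected cells. The labels give 3 samples per group, but the table labelled siNC replicate 3 held the same reads as siNC replicate 2 in all 19072 genes with reads, so the pair was counted as 1 sample, which left 2 siNC and 3 siCXCR4 libraries.

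The set was chosen by the p-value of Cdt1, which stood at place 13 of 9943 genes in the comparison of siCXCR4 with siNC, and the other 9 genes were added for their roles beside it. The differences between the groups are therefore a description for these 10 genes. Their SEs, intervals and call counts below show the spread between libraries and how the fit over all genes placed them, and they support nothing about the genes, since the choice used the same values. Nothing in the labels ties replicates to separate cultures or mice, and the p-values below measure only the spread between these libraries, which may be technical. The SEs and intervals combine a gene's own spread with that of all genes tested. In bulk RNA, fewer cells in S phase and less RNA per cell cannot be told apart.

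Before a cell copies its DNA, each origin of replication is licensed: the origin recognition complex, with CDC6 and CDT1, loads the MCM2-7 helicase, a ring of related subunits, onto the DNA in G1. In S phase the ring is activated and unwinds the template, PCNA holds the polymerases on it as a sliding clamp, and thymidine kinase 1 (Tk1) salvages thymidine for the new strands. CDT1 is then destroyed or held by geminin, so that no origin fires again, and p21, the product of Cdkn1a, blocks the cyclin-dependent kinases that start S phase and also binds PCNA. Many licensing genes are targets of the E2F transcription factors. Differentiated macrophages divide little, and LPS is known to stop the division of cultured marrow macrophages.

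E2F binding words were sought because the licensing genes are textbook E2F targets, and the matches are shown so that the sequence can be read beside the levels. Start-site windows from RefSeq (build GRCm38.p6), each from 250 bases before to 50 bases after the start of a gene, were matched by symbol for 9 of the 10 genes. The words searched on both strands were TTTCCCGC, TTTCGCGC, TTTGCCGC and TTTGGCGC, and matches can overlap each other. At least 1 word lay in a window of 5 of these 9 genes (Cdt1, Mcm3, Mcm5, Mcm6 and Mcm7), while 4.84% of the 7328 tested genes with a window and 2.26% of all 32851 windows held one. No word was in the windows of Mcm2, Pcna, Tk1 or Cdkn1a, which says only that these letters are not there. Capitals mark the words, or their reverse complement, in the matching stretches, printed 5′ to 3′ on the strand of the gene. The 30-base pieces lie after the start site and the 250-base pieces before it.
Cdt1, chr8:122568035-122568064, plus strand: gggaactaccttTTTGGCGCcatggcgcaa
Mcm3, chr1:20820265-20820294, minus strand: gGCGGGAAAacttgggaagtTTTGGCGCca
Mcm7, chr5:138171849-138171878, minus strand: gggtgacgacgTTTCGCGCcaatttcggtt
Mcm5, chr8:75109259-75109508, plus strand: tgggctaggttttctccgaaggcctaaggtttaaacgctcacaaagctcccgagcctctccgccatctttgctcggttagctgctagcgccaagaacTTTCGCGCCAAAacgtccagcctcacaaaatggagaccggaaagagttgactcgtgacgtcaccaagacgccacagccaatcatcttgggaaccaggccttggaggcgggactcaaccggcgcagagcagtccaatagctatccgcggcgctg
Mcm6, chr1:128359706-128359955, minus strand: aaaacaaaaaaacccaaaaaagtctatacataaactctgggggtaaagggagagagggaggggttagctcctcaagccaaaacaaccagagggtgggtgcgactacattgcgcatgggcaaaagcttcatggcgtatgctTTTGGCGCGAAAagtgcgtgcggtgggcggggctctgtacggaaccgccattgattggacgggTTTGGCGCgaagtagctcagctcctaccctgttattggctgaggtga
Mcm7, chr5:138171884-138172133, minus strand: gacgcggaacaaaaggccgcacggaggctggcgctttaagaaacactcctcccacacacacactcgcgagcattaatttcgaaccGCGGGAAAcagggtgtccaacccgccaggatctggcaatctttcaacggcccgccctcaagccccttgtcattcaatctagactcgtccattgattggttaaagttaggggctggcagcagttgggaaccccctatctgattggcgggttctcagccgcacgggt
In Cdt1 the word begins at base 33 of the transcript. Mcm6 holds 3 words, an overlapping pair and a single one, which begin 110, 106 and 47 bases before the start site. In Mcm5 an overlapping pair begins 153 and 149 bases before it, and Mcm7, which has 2 windows, holds 2 words in the upstream one. A match is a description of the sequence and not evidence of a bound factor.

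The libraries held 18890751 to 21780840 reads in genes, and 95% intervals of log2 fold changes reached a median of 0.171 to either side. Cxcr4, the siRNA target, was at 41.3 and 42.1 FPKM in siNC and at 31.1, 36.2 and 32.7 FPKM in siCXCR4, lower in every siCXCR4 library but not called by limma over all genes (adjusted p = 0.457). By limma 0 of 9943 genes (0%) were called at an adjusted p under 0.05. At an unadjusted p under 0.05 it found 577 higher (5.8%) and 352 lower (3.54%), while edgeR on the whole reads called 17 of 12794 (0.133%) after adjustment. By library, siCXCR4 replicate 2 lay closer to siNC replicate 1 (chi-square per gene 4.20) than to siCXCR4 replicates 1 (6.35) and 3 (7.95). Of 12 macrophage markers 11 were at a mean of at least 1 FPKM, with Adgre1 at 441 to 528, Csf1r at 236 to 253 and Cd68 at 452 to 549 FPKM, and Cd163 was listed at 0 in every library. Summed over 8 genes, markers of marrow progenitors, which divide, came to 0.306 and 0.533 FPKM in siNC against 0.187 to 0.383 FPKM in siCXCR4, with Hoxa9 at 0. Neutrophil markers summed to 105 to 109 FPKM in siNC against 84.4 to 99.9 FPKM in siCXCR4, where S100a8 and S100a9 were lower in each library. In FPKM the groups overlapped in Ngp, Camp and Ltf, and the other 5 of the 10 were under 1 FPKM, with Retnlg at 0. Scaled to the reads in the listed genes, 3 of the list lay below without overlap and 0 above. Over all genes tested, 14.6% and 11.9% did. The part of these markers in the values below was not tested.

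Cdt1 (ENSMUSG00000006585, chromosome 8, 122568015 to 122573554 in GRCm38 coordinates), the factor that brings the MCM ring to the origin, was at 7.30 and 8.0 FPKM in the siNC libraries and at 10.6, 9.78 and 10.8 FPKM in siCXCR4 replicates 1, 2 and 3. All 3 siCXCR4 values lay above both siNC values, and the lowest of them was that of replicate 2. The means were 7.65 ± 0.489 FPKM (SD, n = 2) and 10.4 ± 0.535 FPKM (SD, n = 3), a ratio of 1.36, on 495 to 723 reads per library. On the log2(FPKM + 1) scale the difference was 0.40 (SE 0.0656, 95% interval 0.24 to 0.55). Cdt1 was chosen for this difference, so its size and its distance from 0 are no separate evidence. A gene model on the same strand, Gm20388, overlaps Cdt1 and was listed at 0 reads.

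The 6 MCM genes, the subunits of the replicative helicase, had unequal FPKM. This measure divides by a listed gene length, 6956 bases for Mcm2, 4426 for Mcm7 and 3589 for Mcm4, so comparisons between genes rest on those lengths. In reads per library Mcm2 (294 to 374) overlapped Mcm5 (296 to 451). Mcm6 (chromosome 1, 128331590 to 128359664) had the highest level of the 6, with 9.71 and 10.3 FPKM in siNC against 12.4, 10.5 and 11.8 FPKM in siCXCR4. Mcm3 had 8.48 and 8.76 FPKM in siNC against 10.2, 8.84 and 9.66 FPKM in siCXCR4. For both, the siCXCR4 values lay above the siNC values, but in siCXCR4 replicate 2 by a margin of less than the spread within the siNC group. Mcm4 followed with 6.34 and 6.78 FPKM in siNC against 7.0, 6.47 and 7.62 FPKM in siCXCR4. Mcm5 was at 4.21 and 4.51 FPKM in siNC and at 5.19, 3.82 and 5.03 FPKM in siCXCR4. Here replicate 2 of siCXCR4 fell below both siNC libraries. Mcm7 was at 2.17 and 2.51 FPKM in siNC and at 2.69, 2.35 and 2.60 FPKM in siCXCR4. Mcm2 was at 2.26 and 2.38 FPKM in siNC and at 2.47, 2.18 and 2.62 FPKM in siCXCR4, where replicate 2 again fell below both siNC libraries. Mcm7 and Mcm2 were the lowest of the 6 in FPKM, their ranges crossed, and in both the groups overlapped, as they did in Mcm4 and Mcm5. Reads per library ran from 202 for Mcm7 to 1256 for Mcm6. Mcm7 overlaps Cops6 on the other strand, which averaged 1011 reads against 222 for Mcm7, and Ap4m1, also on the other strand, which averaged 176, so without a stated strand setting their reads cannot be told apart.

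On the log2(FPKM + 1) scale, Mcm6 differed by 0.19 (SE 0.0761, 95% interval 0.0045 to 0.37) and Mcm3 by 0.13 (SE 0.0674, 95% interval -0.029 to 0.29). Mcm4, Mcm5, Mcm7 and Mcm2 had differences of 0.08, 0.08, 0.09 and 0.04, with intervals that spanned 0. All 6 differences were above 0, as were 5607 of the 9943 genes tested, with a median of 0.09 beside 0.01 over all genes tested. Scaled to the reads in the listed genes, these medians were 0.064 and -0.0083. Under the scalings tried the 6 stayed above 0, but Mcm2 was at -0.00036 without siCXCR4 replicate 3 and with the replicate block. With 1 library left out, Mcm4 ran from 0.032 (without siCXCR4 replicate 3) to 0.14 (without siCXCR4 replicate 2) and Mcm5 from 0.0099 (without siCXCR4 replicate 1) to 0.19 (without siCXCR4 replicate 2). Mcm7 ran from 0.0135 without siNC replicate 1 to 0.16 without siNC replicate 2, and Mcm2 reached 0.093 without siCXCR4 replicate 2. The median was 0.16 without siCXCR4 replicate 2 and 0.04 without siNC replicate 1.

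**Figure D1:**
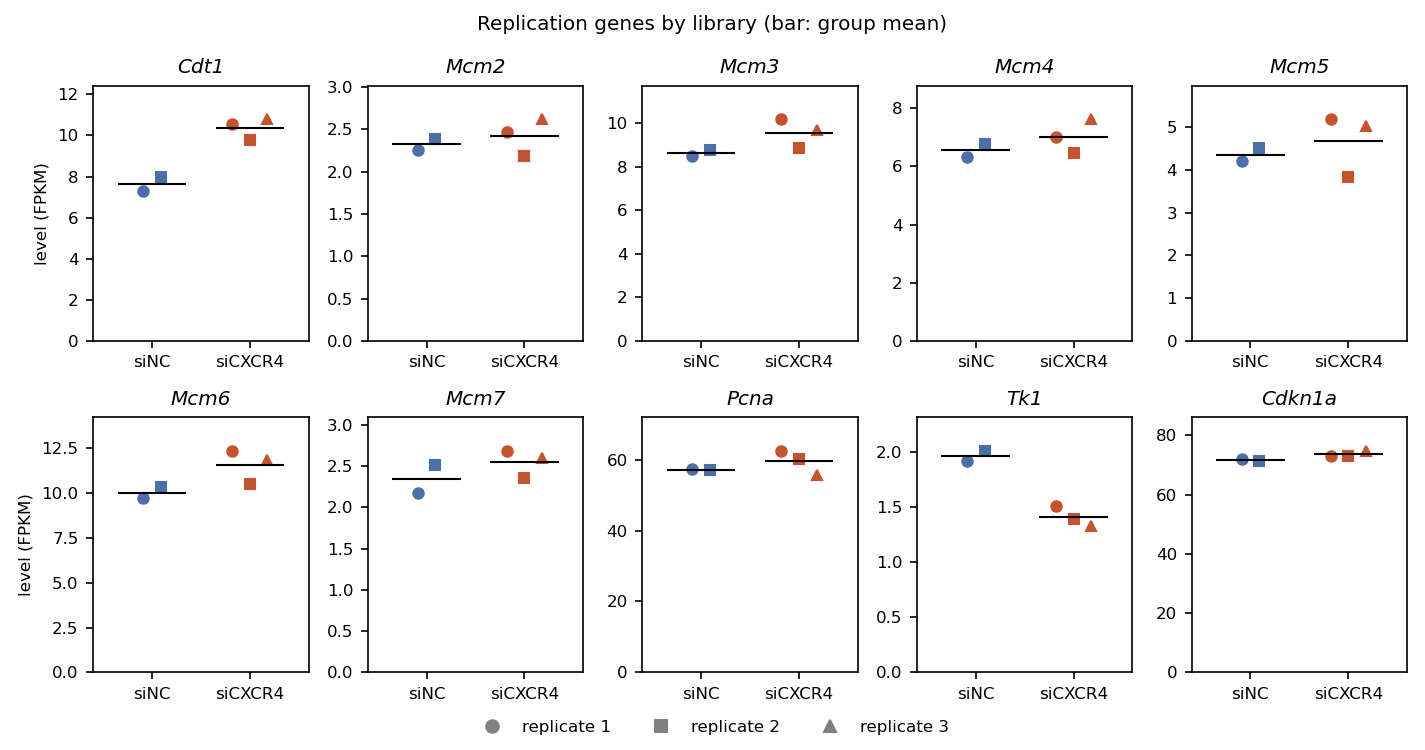
Level in FPKM (vertical axes, from 0) of each of the 10 genes in the 2 siNC and 3 siCXCR4 libraries; each point is a library, its shape the replicate number, and the bar is the group mean. Cdt1 lies higher and Tk1 lower in all 3 siCXCR4 libraries, and in each MCM panel siCXCR4 replicate 2 is the lowest siCXCR4 point.

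In the MCM genes, siCXCR4 replicate 2 stood apart from the other siCXCR4 libraries. Relative to each gene's mean over the 5 libraries, siCXCR4 replicates 1 and 3 lay above the mean in 6 of 6 MCM genes, and siCXCR4 replicate 2 and siNC replicate 1 lay below it in 6 of 6. Averaged over the 6 genes, the deviations on the log2 scale were -0.10 and -0.02 in siNC and 0.10, -0.08 and 0.10 in siCXCR4. In that mean, siCXCR4 replicate 2 lies between the siNC libraries. Cdt1 deviated by -0.30 and -0.18 in siNC and by 0.18, 0.08 and 0.21 in siCXCR4. The MCM levels summed to 33.2 and 35.3 FPKM in siNC, against 39.9, 34.2 and 39.4 FPKM across siCXCR4, and these sums overlapped between the groups.

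**Figure D2:**
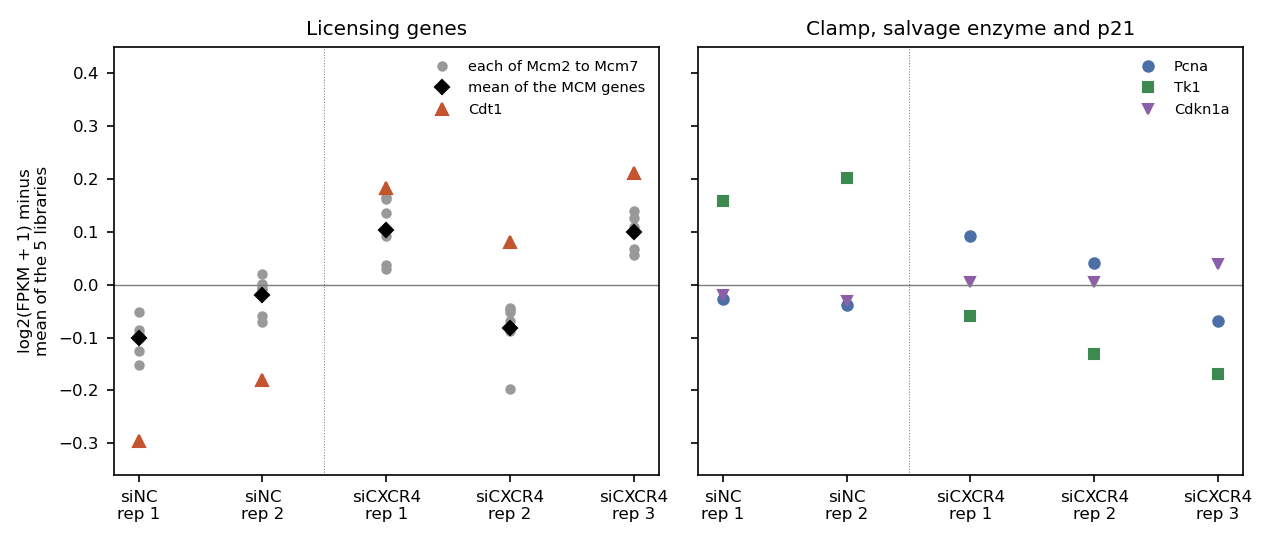
Deviation of log2(FPKM + 1) from the mean of the 5 libraries (vertical axis) for each library (horizontal axis); grey points are Mcm2 to Mcm7, black diamonds their mean, and the right panel shows Pcna, Tk1 and Cdkn1a. In siCXCR4 replicate 2 the MCM mean is at -0.08, between the siNC libraries at -0.10 and -0.02.

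Pcna, the sliding clamp, was among the more abundant of the 10 genes, at 57.4 and 57.0 FPKM in siNC against 62.5, 60.2 and 55.8 FPKM in siCXCR4. The groups overlapped, since siCXCR4 replicate 3 was the lowest of the 5 libraries, and the log2 difference was 0.05 (95% interval -0.089 to 0.20), with 0.019 without siCXCR4 replicate 1 and 0.10 without siCXCR4 replicate 3. The genes named as its pseudogenes took few reads, with Pcna-ps2 at a mean of 14.4 reads and Pcna-ps1 at 0, against 2563 to 3266 reads per library for Pcna. Cdkn1a, which encodes the kinase inhibitor p21, was the most abundant, at 71.8 and 71.2 FPKM in siNC against 73.0, 73.1 and 74.8 FPKM in siCXCR4. These values lay just above the siNC values, by a ratio of 1.03 between the means, and the log2 difference was 0.04 (95% interval -0.067 to 0.15).

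Tk1 (chromosome 11, 117815526 to 117826092), the salvage kinase, was the lowest of the 10 in FPKM and the one that lay the other way. It was at 1.92 and 2.01 FPKM in siNC and at 1.51, 1.39 and 1.33 FPKM in siCXCR4, so that the groups did not overlap. The means were 1.96 ± 0.0648 FPKM (SD, n = 2) and 1.41 ± 0.0937 FPKM (SD, n = 3), a ratio of 0.717, on 132 to 220 reads per library. The log2 difference was -0.30 (SE 0.0750, 95% interval -0.48 to -0.12) with a pseudocount of 1, which shrinks the change of so low a gene, and -0.49 by edgeR. Tk1 overlaps Afmid on the other strand, which averaged 61.0 reads against 174.

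Read together in FPKM, 4 of the 10 genes had siCXCR4 values above the siNC values without overlap (Cdt1, Mcm3, Mcm6 and Cdkn1a), where 17.9% of the genes tested did, and 1 lay below (Tk1), where 9.92% did. Limma gave an unadjusted p under 0.05 to 2 higher genes and 1 lower gene (5.8% and 3.54% over all genes), and called 0 after adjustment. On whole reads edgeR and DESeq2 each called 1 of the 10, Cdt1, at adjusted p = 0.0491 and 0.0492. Over all genes fitted, edgeR called 17 of 12794 (0.133%) and DESeq2 28 of 23311. By edgeR without its robust estimate 0 of the 10 were called (3 of 12794 over all genes), with Cdt1 at an adjusted p of 0.0809. Since the choice of the genes used this comparison, nothing is read from these counts. The library total behind FPKM, worked back from the values, was larger than the reads in the listed genes. The excess, whose source is not stated, made up 2.80% and 2.15% of that total in siNC and 0.00033%, 0.312% and 1.37% in siCXCR4. This lowers FPKM more in siNC. Scaled to the reads in the listed genes, 1 gene lay above without overlap (Cdt1, with a background of 11.9%) and 1 below (Tk1, with a background of 14.6%). On that scale Cdkn1a was at 73.9 and 72.8 in siNC and 73.0, 73.3 and 75.8 in siCXCR4, and Mcm6 at 9.99 and 10.6 against 12.4, 10.5 and 12.0, so that both overlapped. Over all genes, the split at an unadjusted p under 0.05 by limma turned from 577 higher and 352 lower to 334 higher and 508 lower on that scale, and edgeR gave 571 higher and 674 lower at the same threshold.

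**Figure D3:**
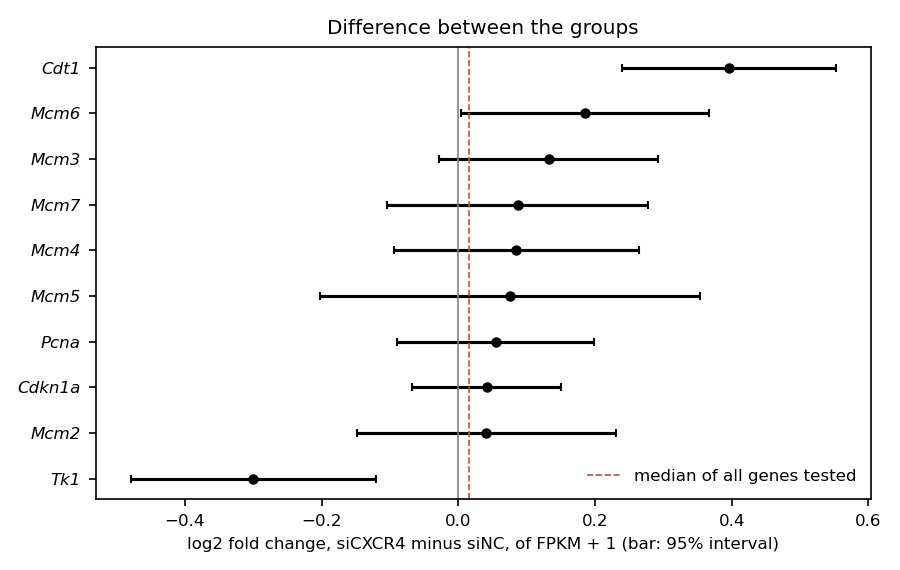
Log2 fold change of FPKM + 1, siCXCR4 minus siNC (horizontal axis), with its 95% interval from the fit over all genes for each of the 10 genes; the dashed line is the median of all genes tested. Cdt1 is at 0.40, Tk1 at -0.30, and the intervals of 7 genes span 0.

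Ordered by their mean FPKM, which depends on the listed gene length, the 10 genes were Cdkn1a, Pcna, Mcm6, Cdt1, Mcm3, Mcm4, Mcm5, Mcm7, Mcm2 and Tk1. Their overall means were 72.8, 58.6, 10.9, 9.29, 9.18, 6.84, 4.55, 2.46, 2.38 and 1.63 FPKM in that order. Neighbours whose ranges over the 5 libraries crossed were Mcm6 with Cdt1, Cdt1 with Mcm3, and Mcm7 with Mcm2. The clamp and the kinase inhibitor thus stood well above the licensing factors, among the 9943 genes at places 830 and 674 by level.

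Other genes of licensing and helicase activation had a median level of 1.58 FPKM. Of 24 listed, 15 reached a mean of 1 FPKM, 0 were called by limma or edgeR, and at an unadjusted p under 0.05 by limma 1 was higher and 0 lower (5.8% and 3.54% of all genes tested), with a median log2 difference of 0.06. That median was 0.027 and 0.028 without siNC replicates 1 and 2, and 0.036 and 0.035 without siCXCR4 replicates 1 and 3. Mcmbp, which binds the MCM proteins off the DNA, was the most abundant of them, at 15.8 ± 0.315 FPKM in siNC against 18.2 ± 1.43 FPKM in siCXCR4 (log2 difference 0.19, SE 0.0720, adjusted p = 0.513 by limma). Here and in the lists that follow, values with ± are means and SDs, siNC (n = 2) before siCXCR4 (n = 3). Orc4, a subunit of the origin recognition complex, was at 3.16 ± 0.287 and 3.57 ± 0.129 FPKM, and Orc6 at 1.70 ± 0.455 and 1.95 ± 0.131 FPKM. Chosen after their values were seen for their roles as partners of Cdt1, the loader Cdc6 ran from 0.233 to 0.469 FPKM and the subunit Orc1 from 0.315 to 0.481 FPKM, both below Cdt1 in each library. Geminin (Gmnn), the inhibitor of CDT1, was named on the same ground and was at 3.22 and 3.15 FPKM in siNC against 2.70, 3.10 and 3.99 FPKM in siCXCR4, with overlapping groups.

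Of 13 listed genes around the removal of CDT1 and p21, mostly parts of ubiquitin ligases but also the deubiquitinase Usp37 and the methyltransferase Kmt5a, 12 had a mean of at least 1 FPKM. The exception was Dtl, the subunit by which the CUL4 ligase recognises CDT1 and p21, at 0.117 to 0.201 FPKM, named here after its values were seen. Of the 12, 0 were called by limma or edgeR and 0 had an unadjusted p under 0.05. The median log2 difference was 0.04, with 0.064 without siNC replicate 1, 0.058 without siCXCR4 replicate 3 and 0.016 when scaled to the reads in genes. Ddb1, an adaptor of the CUL4 ligase, was at 39.5 ± 1.49 FPKM in siNC against 42.7 ± 1.12 FPKM in siCXCR4, the scaffold Cul4a at 10.9 ± 0.426 and 11.8 ± 0.110 FPKM, and the RING subunit Rbx1 at 9.59 ± 0.517 and 8.55 ± 0.480 FPKM. By limma the adjusted p of these 3 was 0.561, 0.580 and 0.539.

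At the replication fork, 24 of 34 listed genes were tested, 0 were called by limma or edgeR, and limma gave an unadjusted p under 0.05 to 1 higher and 1 lower gene (5.8% and 3.54% over all genes). The median log2 difference of -0.03 turned to 0.00415 without siCXCR4 replicate 2, and was -0.0047 without siCXCR4 replicate 3, -0.017 without siNC replicate 2 and -0.051 without siCXCR4 replicate 1. Pole3, a histone-fold subunit of DNA polymerase epsilon, was at 9.31 and 9.42 FPKM in siNC and at 11, 10.9 and 11 FPKM in siCXCR4 (log2 difference 0.20, SE 0.0478, adjusted p = 0.457 by limma). Rpa3, the small subunit of the single-strand binding complex, was at 2.05 ± 0.254 and 1.40 ± 0.289 FPKM, and Rfc4, of the clamp loader, at 1.79 ± 0.145 and 1.25 ± 0.349 FPKM, each on 24 to 64 reads per library. Pold4, of polymerase delta, had the highest level of the list, at 27.4 ± 2.03 and 26.3 ± 2.86 FPKM.

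Among 22 genes of nucleotide supply 17 were tested, 0 were called by limma or edgeR, 0 had an unadjusted p under 0.05, and the median log2 difference was 0.04. It was 0.014 without siNC replicate 1, 0.026 without siCXCR4 replicate 1 and 0.023 without siCXCR4 replicate 2. Samhd1, which breaks down deoxynucleotides and is known to limit their pool in macrophages, was at 158 and 172 FPKM in siNC against 189, 168 and 187 FPKM in siCXCR4. Dck, the deoxycytidine kinase, was at 30.4 ± 2.03 and 34.7 ± 3.46 FPKM, Shmt2, a mitochondrial enzyme of one-carbon supply, at 13.3 ± 0.458 and 15.1 ± 1.37 FPKM, and Dtymk, which phosphorylates the product of thymidine kinase, at 3.64 ± 0.302 and 3.20 ± 0.129 FPKM. Dtymk had lower values in siCXCR4, with groups that did not overlap, and an adjusted p of 0.567 by limma. In FPKM 3 of the 17 genes lay above and 2 below without overlap, where 17.9% and 9.92% of all genes tested did.

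In the control of entry into S phase, 20 of 30 listed genes were tested, 0 were called by limma or edgeR, and limma gave an unadjusted p under 0.05 to 2 higher and 0 lower genes (5.8% and 3.54% over all genes). The median log2 difference was 0.03, with 0.044 without siCXCR4 replicate 2 and 0.0020 when scaled to the reads in genes. E2f5, a repressive member of the E2F family, was at 15.9 and 15.4 FPKM in siNC against 19.7, 19.7 and 17.6 FPKM in siCXCR4 (log2 difference 0.26, SE 0.0641, adjusted p = 0.457 by limma). Ccnd1, cyclin D1, was at 1.90 and 2.65 FPKM in siNC against 3.47, 2.84 and 3.05 FPKM in siCXCR4 (log2 difference 0.34, SE 0.117, adjusted p = 0.504 by limma). Its partner kinase Cdk6 was at 5.98 ± 0.158 and 6.55 ± 0.130 FPKM, and cyclin D2 (Ccnd2), the most abundant of the list, at 29.4 ± 1.64 and 28.8 ± 1.86 FPKM. E2f1, an activating E2F named after its values were seen, was at 10.5 FPKM in both groups, with an SD of 0.0335 in siNC and 0.374 in siCXCR4.

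Genes of G2 and mitosis were near the floor: 23 of 28 listed had a mean under 1 FPKM, and the median level over the list was 0.316 FPKM, against 8.01 FPKM over the 10 genes. Cyclin B1 (Ccnb1) was at 0.171 ± 0.0136 FPKM in siNC against 0.263 ± 0.0731 FPKM in siCXCR4, on 15 to 27 reads per library, and topoisomerase Top2a at 0.873 ± 0.0393 and 0.838 ± 0.106 FPKM. Of the 5 above that level, Mki67, the usual marker of dividing cells, was at 9.47 and 9.36 FPKM in siNC against 7.20, 9.74 and 8.25 FPKM in siCXCR4, with overlapping groups. Tpx2, a spindle assembly factor, had the highest level of the list, at 10.6 and 13.8 FPKM in siNC against 17.7, 12.6 and 18.8 FPKM in siCXCR4. In Tpx2, siCXCR4 replicate 2 was the lowest siCXCR4 library, as in each MCM gene, and here it lay within the siNC range. Mad2l1, of the spindle checkpoint, was at 1.90 ± 0.204 and 1.80 ± 0.205 FPKM. None of the 5 genes tested was called by limma or edgeR, and 0 had an unadjusted p under 0.05.

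**Figure D4:**
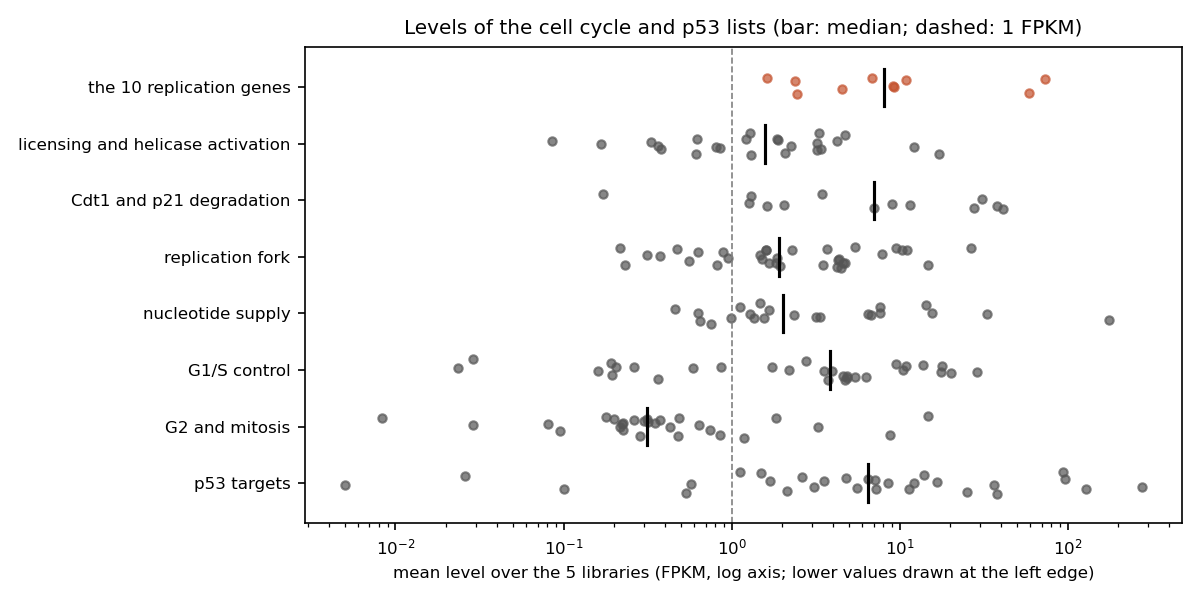
Mean level over the 5 libraries in FPKM (horizontal log axis) of each gene of the lists (rows), with the median as a bar and 1 FPKM dashed. The 10 replication genes lie at or above 1.63 FPKM, while 23 of 28 genes of G2 and mitosis lie below 1 FPKM.

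Because Cdkn1a is a main target of the tumour suppressor p53, other p53 targets were set beside it. The list also held p53 itself (Trp53), which counts below among the 8 higher genes and the 8 above without overlap in FPKM. Of 29 listed genes 24 were tested, 0 were called by limma or edgeR, and limma gave an unadjusted p under 0.05 to 8 higher and 2 lower genes, where 5.8% and 3.54% of all genes tested were. The median log2 difference was 0.06, with 0.095 without siNC replicate 1 and 0.034 when scaled to the reads in genes. In FPKM 8 of the 24 lay above and 4 below without overlap (17.9% and 9.92% over all genes), and scaled to the reads in genes also 8 and 4 (11.9% and 14.6%). Like the other lists, this list was chosen with earlier results of these data known. No test of the list was run, and nothing is read from these counts. Sesn2, a stress sensor that restrains mTORC1, was at 33.1 and 32.7 FPKM in siNC against 40.2, 38.1 and 38.2 FPKM in siCXCR4 (log2 difference 0.23, SE 0.0490, adjusted p = 0.438 by limma). Btg2, an antiproliferative factor, was at 6.39 ± 0.113 and 7.54 ± 0.189 FPKM, and Gadd45b, a stress response gene and the most abundant of the list, at 258 ± 0.792 and 290 ± 7.68 FPKM. The BH3-only gene Pmaip1 lay the other way, at 12.5 ± 0.465 and 10.7 ± 0.299 FPKM (log2 difference -0.20, adjusted p = 0.486 by limma). Named after their values were seen, p53 itself (Trp53) was at 10.9 and 11 FPKM in siNC against 14.0, 12.5 and 12.4 FPKM in siCXCR4, and its negative regulator Mdm2 at 80.2 and 91.8 FPKM in siNC against 101, 91.6 and 102 FPKM in siCXCR4. Cdkn1a, with a ratio of 1.03 between the means, differed less than Sesn2 or Trp53 did in FPKM, and the difference between these genes was not tested.

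Genes with a profile over the 5 libraries like that of Cdt1 were listed as a description. The search used the values for which Cdt1 was chosen, so genes with a like difference between the groups come first. Likeness was the root mean square difference of the mean-centred log2(FPKM + 1) values, over 5517 protein-coding genes that averaged 5 FPKM or more. The 5 nearest were mt-Nd3 (a mitochondrial subunit of complex I, on 63 to 88 reads per library), Cd180 (a TLR4-related receptor), Wfs1 (an endoplasmic reticulum membrane protein), Dhrs3 (which reduces retinaldehyde) and Atf3 (a stress-induced transcription factor). Cd180 was at 50.1 ± 1.40 FPKM in siNC against 63.1 ± 3.01 FPKM in siCXCR4, and Atf3 at 145 ± 7.67 and 182 ± 10.6 FPKM. Mcm6 stood at place 132 and Mcm3 at place 393 by this measure, with root mean square differences of 0.110 and 0.135 from Cdt1, while Pcna stood at place 2406.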

How the data were processed

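RNA sequencing tables of 6 samples were used. Of these, 5 hold FPKM values that the authors deposited with no unit named, made by dividing reads by gene length and library total. The unit was read from the values. Multiplied by gene length and divided by a step fitted for each library, 100% of values gave whole reads (tolerance 0.05). Whether reads or fragments were counted cannot be told from the values. The table of siNC replicate 3 holds deposited whole read counts, equal to those of siNC replicate 2, so 5 distinct libraries were analysed. The build is mm9 per the submitters' processing notes, but 98.33% of genes sat exactly where GRCm38 annotates them, and GRCm38 coordinates are printed. For aligner, counter and strand setting, nothing is given in the sources used here. The series title calls the cells monocyte-derived.

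A repeated symbol was represented by its most abundant entry. The comparison used limma 3.58.1 in R 4.3.3 (trend and robust) on log2(FPKM + 1) of genes averaging 1 FPKM or more, as a two-sided test with a Benjamini-Hochberg adjusted p under 0.05. Alternatives were edgeR 4.0.16 (TMM, quasi-likelihood, robust) and DESeq2 1.42.0 on whole reads worked back from FPKM, a pseudocount of 0.1, other filters, median scaling, a replicate block and each library left out, and, after the data were seen, FPKM per reads in genes and edgeR without its robust estimate. The fits were tested on simulated data drawn with the same spread (dispersion) for every gene, so the outcome may not carry over to these libraries. In the simulation limma, more so with the replicate block, made false calls above its threshold. The 10 genes, the 7 pathway lists and 11 marker lists were chosen with earlier results of these data known. Named were the 10 genes, Cxcr4, up to 3 genes of lowest p and the most abundant gene of each pathway list, usual proliferation and macrophage markers, and the 5 genes most like Cdt1. Libraries of the same group differed by more than counting error alone gives. The chi-square per gene was 4.84 between the siNC libraries and 4.155 to 7.947 among the siCXCR4 libraries. Without molecular identifiers, reads are not independent molecules.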

Additional observations from a re-analysis of the deposited data

How the results depend on the processing

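By limma 0 genes were called, also with a pseudocount of 0.1, with no filter, with a mean of at least 5 FPKM, with median scaling, with the replicate block and with FPKM per reads in genes. With 1 library left out the count ran from 0 to 2, the 2 without siCXCR4 replicate 2. On whole reads edgeR called 17 of 12794 and DESeq2 28 of 23311. Without its robust estimate, a setting added after the data were seen, edgeR called 3 of 12794. The adjusted p of Cdt1, which was chosen on this comparison, ran from 0.0491 (edgeR) to 0.856 (limma without siNC replicate 1). In the pathway lists 0 genes were called under each of the 14 alternatives. The median log2 fold change of the 10 genes was 0.08 and ran from 0.04 to 0.13 over the alternatives. The replicate numbers have no stated meaning, and same-numbered libraries did not deviate together (correlations -0.04 and -0.11 over genes). With the replicate block the count at an unadjusted p under 0.05 by limma was 500, against 929 without it, and the median of the 10 genes was 0.05; siCXCR4 replicate 3 has no partner and adds nothing to the group difference in that fit. The lowest genes rest on few reads, with Tk1 on 132 to 220 per library. Of the 10 genes, all but Cdt1, Mcm6 and Tk1 had intervals that spanned 0. With a mean of at least 5 FPKM, Mcm2, Mcm5, Mcm7 and Tk1 were not fitted. The median of the G2 and mitosis list, over few genes, was -0.03 and ran from -0.05 to 0.11.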
